A study of Homo sapiens with 6 samples.

Results

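The fibroblast growth factor (FGF) axis was followed here through 10 genes chosen by symbol: the ligand gene FGF19, the receptor genes FGFR1 to FGFR4, the receptor-like gene FGFRL1, the co-receptor gene KLB, the adapter genes FRS2 and FRS3, and the gene of the secreted carrier protein FGFBP1. Of the 10 genes, 9 had a row among the 16229 gene symbols of the count table, and all 9 passed the filter on low counts. KLB, the gene of beta-klotho, had no row and was not analysed here. The libraries came from cells labelled MC38, a colorectal cancer line, with a wild-type genotype label: 3 libraries from cells kept for 24 hours with GCA, read here as the glycocholic acid of the series' title, and 3 from cells without it (CON). No source used here states the dose or says that the replicates were separate cultures, so the p-values reflect the spread among these samples alone, and that spread may be technical. The sample titles call the GCA libraries fa, without saying what that stands for, so their group was taken from the treatment label.

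The organism label reads human and the tables list human symbols, although MC38 was derived from a mouse tumour. FGF19 is the human name of a hormone whose mouse counterpart is called Fgf15. The labels also speak of heart samples in the extraction protocol, and polyA RNA is named beside a kit for total RNA. These conflicts were not resolved.

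FGFs bind receptor tyrosine kinases on the cell surface. Most act near their source, held by heparan sulphate, but FGF19 binds heparan sulphate weakly and travels as a hormone. In the ileum, bile acids switch FGF19 on through the nuclear receptor FXR, and in the liver FGF19 binds FGFR4 together with beta-klotho and represses bile acid synthesis. An active receptor phosphorylates the docking adapters FRS2 and FRS3, which lead to the RAS and ERK kinases. FGFBP1 releases stored FGFs from the matrix.

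Total counts ran from 18057453 to 20531612 per library. Replicate 1 stood apart in both groups: the chi-square per gene against the other 2 libraries of its group was 40.3 and 45.8 for CON 1 and 23.0 and 20.2 for GCA 1, where replicates 2 and 3 differed by 4.87 and 6.49. Of 13 markers of colorectal epithelium, 9 were tested, 4 rose in GCA and 1 fell, where 18.3% of all tested genes rose and 18.1% fell. The sum of the 13 markers was 6080 to 7890 CPM (the count scaled by library size) in the CON libraries and 8740 to 10500 CPM in those with GCA. The keratin genes KRT8 (4960 to 6990 CPM) and KRT18 (1450 to 2360 CPM), KRT20 and CDH1 rose, the mucin gene MUC2 fell by 3.62 on the log2 scale from 1.33 CPM (edgeR adjusted p = 0.00114), and EPCAM (276 and 317 CPM) and CDX2 (30.8 and 36.7 CPM) did not pass. LGR5 had a mean of 0 CPM in CON, and CEACAM5, GPA33 and VIL1 had means under 1 CPM in both groups. Marker sums of other cell types were low and also higher in GCA: 29.1 to 32.8 against 39.2 to 43.6 CPM for hepatocytes, 23.5 to 26.8 against 37.2 to 42.4 CPM for cardiomyocytes, 27.7 to 31.7 against 32 to 41.6 CPM for leukocytes, and 11.3 to 12.7 against 16.7 to 18.4 CPM for fibroblasts and endothelium. Few genes carried these sums: SERPINA1 rose from 5.05 to 17.1 CPM, TNNI3 from 23.8 to 38.1 CPM, CORO1A from 7.32 to 16.3 CPM and COL1A1 from 11.1 to 15 CPM, while CPS1 (13.9 CPM in both groups), HNF4A (11.8 and 10.7 CPM), MYL2 (1.64 and 0.981 CPM) and CD68 (22.3 and 18.3 CPM) did not pass. A correction for the GC content and length of transcripts, described below, ended the calls of KRT8, TNNI3 and COL1A1 (edgeR adjusted p = 0.0718, 0.566 and 0.696). With it the adjusted p stayed below 0.05 for KRT18, KRT20, CDH1, MUC2, SERPINA1 and CORO1A. The hepatocyte gene ALB, the heart gene MYH6 and the leukocyte gene PTPRC had means under 0.1 CPM in both groups. The part of other cells in the results was not tested, and in bulk RNA a change in the number of cells and one in RNA per cell cannot be told apart. Across tested genes, log2 fold changes correlated with transcript GC content (Pearson's r = 0.484, over genes that are not independent replicates and share the 6 libraries).

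Of the 9 axis genes tested, 2 rose in GCA and none fell. FGFBP1 rose 5.26-fold and FGFR3 rose 1.46-fold. Over all 12604 tested genes 36.4% passed, 18.3% as higher in GCA and 18.1% as lower, so 2 of 9 is near the background. With the replicate number as a block the same 2 genes passed, where 20% of all tested genes rose. Without replicate 1 of both groups 4 of the 9 rose, FGFR1 and FGFR4 beside these 2, where 29.3% of all tested genes did. In 4 of the 9 genes the GCA libraries all lay above the CON libraries and in none below. Over all tested genes GCA lay above without overlap in 24.1% and below in 24.3%, 48.5% in either direction. FGF19, FGFR1, FGFR2, FGFR4, FGFRL1, FRS2 and FRS3 did not pass. The median log2 fold change was 0.16 over the 9 genes and -0.04 over all tested genes. Single genes were tested with edgeR's quasi-likelihood test, adjusted by the Benjamini-Hochberg method over all tested genes with a threshold of 0.05, with 3 libraries per group.

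Both genes that rose lie on chromosome 4, as do FGFRL1 and KLB. FGFBP1 (15935577 to 15938740, GRCh38) and its paralogue FGFBP2 (15960245 to 15963175) are neighbours, and both passed the test. FGFR3 (1793293 to 1808867) lies 766 kb from FGFRL1. RefSeq's table for GRCh38.p14 held the promoter of 8 of the 10 axis genes. The 250 bases before the annotated start are shown for FGFBP1, its neighbour FGFBP2 and FGFR3, because these 3 genes carry the rises in ligand carriers and receptors. The windows are chr4:15938741-15938990 (minus strand), chr4:15963176-15963425 (minus strand) and chr4:1793043-1793292 (plus strand). Each is written 5′ to 3′ in lower case, with matches to the GC box GGGCGG on either strand in capitals:
FGFBP1: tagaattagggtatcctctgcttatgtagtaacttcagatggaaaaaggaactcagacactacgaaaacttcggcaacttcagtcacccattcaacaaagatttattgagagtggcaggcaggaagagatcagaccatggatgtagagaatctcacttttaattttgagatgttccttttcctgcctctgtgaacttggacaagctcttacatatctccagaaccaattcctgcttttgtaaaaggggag
FGFBP2: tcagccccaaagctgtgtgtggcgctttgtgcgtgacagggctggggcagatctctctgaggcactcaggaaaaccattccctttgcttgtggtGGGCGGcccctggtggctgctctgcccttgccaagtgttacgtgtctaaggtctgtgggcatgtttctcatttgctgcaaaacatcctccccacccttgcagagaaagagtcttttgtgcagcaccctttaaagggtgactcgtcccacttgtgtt
FGFR3: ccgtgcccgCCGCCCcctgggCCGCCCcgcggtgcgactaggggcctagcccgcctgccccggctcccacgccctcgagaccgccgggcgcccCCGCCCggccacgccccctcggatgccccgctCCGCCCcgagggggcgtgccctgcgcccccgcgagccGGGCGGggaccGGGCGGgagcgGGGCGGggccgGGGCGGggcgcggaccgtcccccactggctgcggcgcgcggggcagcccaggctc

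The 3 windows differ in composition. That of FGFR3 is 86.8% G and C, with 40 CpG dinucleotides and 8 matches to the GC box. That of FGFBP1 is 40.8% G and C, with 2 CpG and no match, and that of FGFBP2 is 54.8%, with 5 CpG and 1 match. The median of 35116 RefSeq windows of this length was 58% G and C with 11 CpG, and 42.6% of them hold a GC box. The AP-1 motif TGANTCA (6.57% of all windows, both strands) and the TATA box TATAAA (10.7%, both strands) match none of the 3. A match describes letters and is not a measured site.

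FGF19, the ligand, was well expressed in every library and did not differ detectably between the groups. Its levels were 54.4, 72.5 and 86.8 CPM across CON 1 to 3 and 61.7, 84.4 and 93.0 CPM across GCA 1 to 3. The 2 groups overlap almost completely, and the lowest library of each group is its replicate 1. The means were 71.3 ± 16.2 CPM (SD, n = 3) in CON and 79.7 ± 16.1 CPM in GCA, a log2 fold change of 0.16 ± 0.18 (SE; edgeR adjusted p = 0.506). Counts of 977 to 1775 per library give a counting error of about 2.72% of the mean in CON, against a spread between CON libraries of 22.8%, so depth is not what limits this comparison. Within same-numbered libraries GCA was above CON in each of the 3 pairs, and a model with the replicate number as a block gave 0.17 (edgeR adjusted p = 0.226). With a correction for the GC content and length of transcripts, called the composition correction from here on, the value was -0.24 ± 0.21 (edgeR adjusted p = 0.426), and it was 0.00 without CON 1. FGF19 has a transcript of 58.6% G and C, and the 1728 tested genes within 2 points of it had a median log2 fold change of 0.27. Its transcript per length stood at the 88.8th percentile of the table in CON and at the 89.4th in GCA.

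Genes that followed FGF19 across libraries were sought by the root-mean-square difference of centred log2 CPM over the 6 libraries. The 3 closest tested genes were PRRG4 (0.0493), KLF14 (0.0634) and KCNJ11 (0.0736), each of them also lowest in replicate 1 of both groups. PRRG4 had counts of 230, 346 and 401 without GCA and 297, 433 and 440 with it (edgeR adjusted p = 0.437). With the composition correction PRRG4 passed (edgeR adjusted p = 0.0349), where FGF19 did not (0.426).

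**Figure D1:**
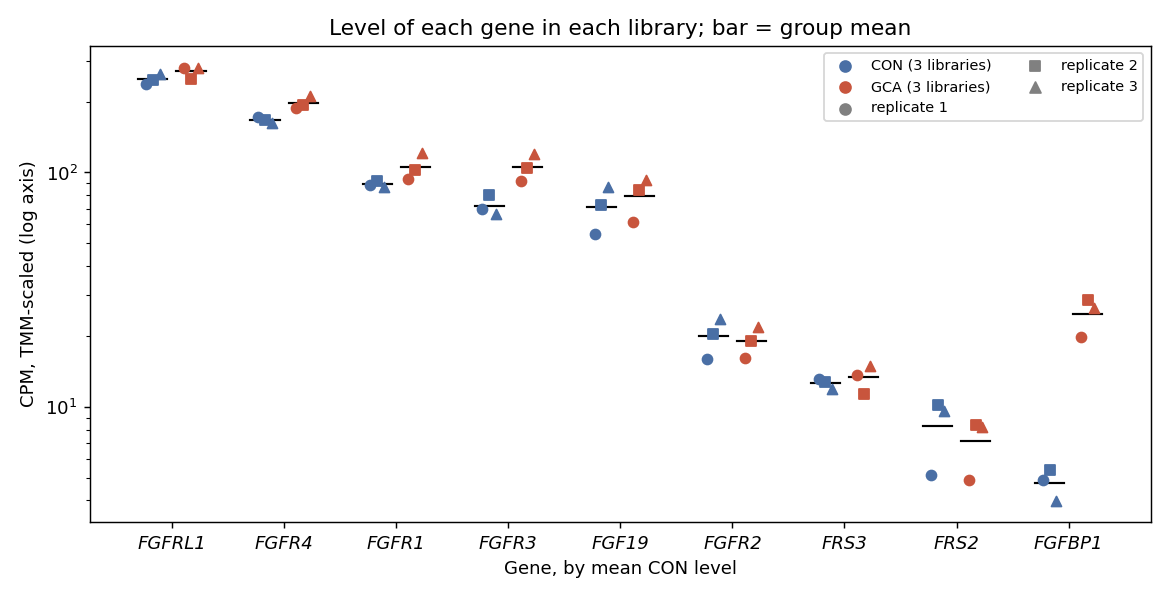
TMM-scaled CPM (log axis) of the 9 axis genes in each library, CON in blue and GCA in red, with the marker shape giving the replicate number and the bar the group mean. FGFBP1 lies between 3.99 and 5.37 CPM in CON and between 19.9 and 28.7 CPM in GCA, and the FGF19 points of the 2 groups overlap.

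Among the receptor genes FGFR3 rose, and FGFR1 and FGFR4 were higher in all 3 GCA libraries without passing the test. FGFR3, a receptor with roles in bone growth and in urothelial cancer, had 69.8, 80.3 and 66.3 CPM across CON 1 to 3 and 92.3, 104 and 120 CPM across GCA 1 to 3. Every GCA library lies above every CON library. The means were 72.1 ± 7.28 and 105 ± 13.7 CPM (SD), a log2 fold change of 0.55 ± 0.13 (SE; edgeR adjusted p = 0.00661). The call was lost without GCA 3 (0.44, edgeR adjusted p = 0.0505) and with the composition correction (0.14 ± 0.11, edgeR adjusted p = 0.384). FGFR3 transcripts are 62.0% G and C, and of the 1376 tested genes within 2 points of that, 45.1% rose, with a median log2 fold change of 0.37.

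FGFR4, the main partner of FGF19 in liver, had 172, 167 and 163 CPM across CON 1 to 3 and 189, 193 and 212 CPM across GCA 1 to 3. The groups do not overlap, which is so for 24.1% of tested genes in this direction. The log2 fold change was 0.24 ± 0.11 (edgeR adjusted p = 0.11). It passed without CON 1 (0.26, edgeR adjusted p = 0.0268) and without replicate 1 of both groups (0.32, edgeR adjusted p = 0.00111). With the composition correction it turned to -0.22 ± 0.08 (edgeR adjusted p = 0.0699), and with the replicate block added to the correction it passed as a fall (-0.22, edgeR adjusted p = 0.0454). The direction of the FGFR4 difference therefore depended on the correction.

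FGFR1, a receptor of mesenchymal and many epithelial cells, had 88.7, 91.8 and 87.0 CPM across CON 1 to 3 and 94.1, 102 and 121 CPM across GCA 1 to 3. These groups do not overlap either, with GCA 3 the highest library. The log2 fold change was 0.24 ± 0.12 (edgeR adjusted p = 0.134), which passed without replicate 1 of both groups (0.34, edgeR adjusted p = 0.00259) and stood at 0.04 with the correction (edgeR adjusted p = 0.831). FGFR2, which has an epithelial and a mesenchymal splice form that counts per gene cannot separate, had 16.0, 20.5 and 23.7 CPM across CON 1 to 3 and 16.2, 19.1 and 21.9 CPM across GCA 1 to 3. Its groups overlap over nearly their whole range (log2 fold change -0.07 ± 0.17, edgeR adjusted p = 0.765).

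FGFRL1 encodes a receptor-like protein that binds FGFs and lacks the kinase domain. It was the axis gene with the highest CPM, at 239, 247 and 262 across CON 1 to 3 and 280, 251 and 280 across GCA 1 to 3. GCA 2 lies within the CON range, and the log2 fold change was 0.12 ± 0.12 (edgeR adjusted p = 0.465). With the composition correction FGFRL1 passed in the other direction (-0.32 ± 0.09, edgeR adjusted p = 0.0243). With that correction 1 axis gene rose (FGFBP1) and 1 fell (FGFRL1), where 12.1% of all tested genes rose and 17.1% fell.

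**Figure D2:**
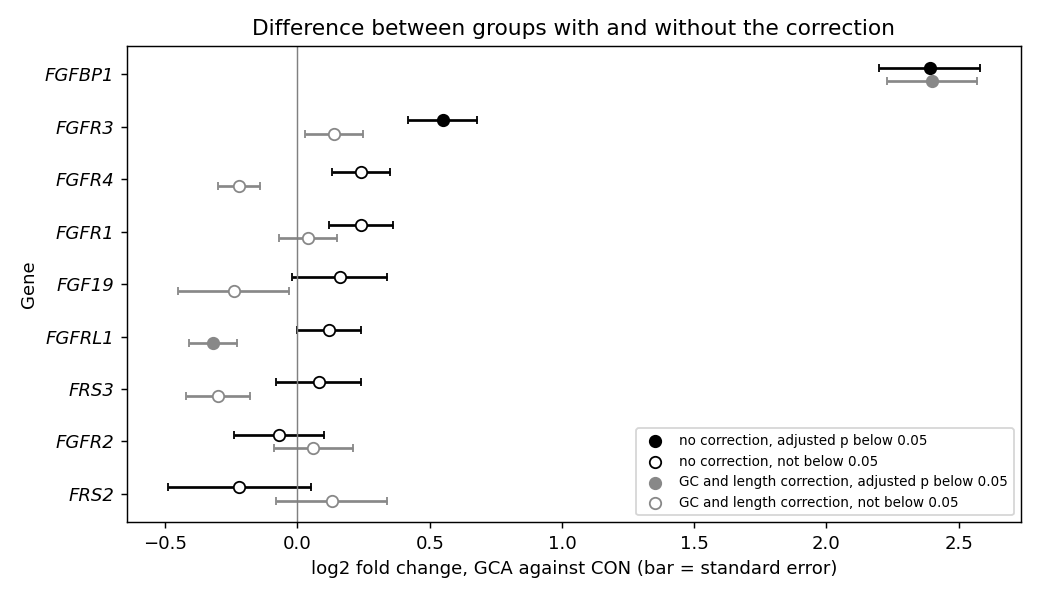
Log2 fold change of GCA against CON for the 9 axis genes, with standard errors, without a correction (black) and with the composition correction, for GC content and length (grey); filled points have an adjusted p below 0.05. FGFBP1 is at 2.39 and 2.40, FGFR3 moves from 0.55 to 0.14, and FGFR4 and FGFRL1 change sign.

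The composition of receptor mRNA was compared per length, as each receptor's share of the summed FPKM (the length-scaled form of CPM) of FGFR1 to FGFR4. FGFR4 made up the largest share in every library: 65.2%, 62.0% and 64.0% across CON 1 to 3 and 63.2%, 61.2% and 59.8% across GCA 1 to 3. FGFR3 made up 18.4%, 20.8% and 18.1% across CON 1 to 3 and 21.5%, 22.9% and 23.5% across GCA 1 to 3. The FGFR3 share was thus higher in all 3 GCA libraries, with means of 19.1 ± 1.46% and 22.6 ± 1.03% (SD; exact two-sided permutation p = 0.1, the smallest that 3 against 3 can give; 0.267 after Benjamini-Hochberg adjustment over the 4 shares). FGFR1 held 14.3 ± 0.140% in CON and 13.7 ± 0.572% in GCA (exact permutation p = 0.2), and FGFR2 2.89 ± 0.611% and 2.22 ± 0.152% (exact permutation p = 0.3). The summed FPKM of the 4 receptors, scaled by TMM, was 84.5 ± 2.35 in CON and 104 ± 9.18 in GCA (exact permutation p = 0.1). The shares and the sum were taken without the composition correction and were not computed with it. With it the log2 fold changes were -0.22 for FGFR4, 0.14 for FGFR3, 0.04 for FGFR1 and 0.06 for FGFR2.

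**Figure D3:**
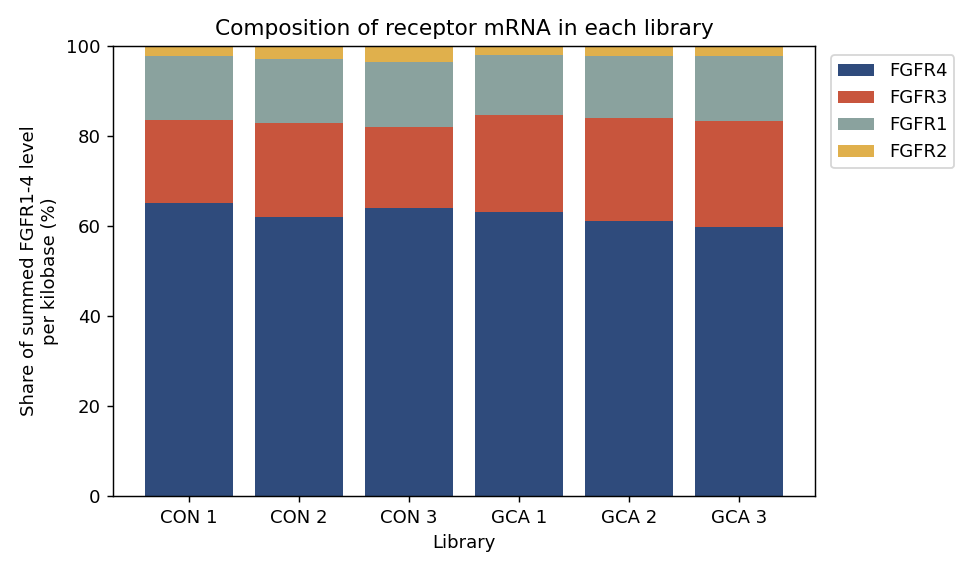
Stacked bars of the share (%) that FGFR4, FGFR3, FGFR1 and FGFR2 take of their summed level per kilobase, for each of the 6 libraries. FGFR4 takes 59.8% to 65.2% in every library, and the FGFR3 segment is 18.1% to 20.8% in CON and 21.5% to 23.5% in GCA.

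FRS2 and FRS3 are the docking adapters that couple FGF receptors to GRB2 and PTPN11. FRS2 was the lowest of the 9 genes per length, at 5.12, 10.2 and 9.58 CPM across CON 1 to 3 and 4.86, 8.35 and 8.22 CPM across GCA 1 to 3. Replicate 1 is the low library in both groups, and the groups overlap (log2 fold change -0.22 ± 0.27, edgeR adjusted p = 0.544). Its CON libraries varied by 33.4%, where counting error alone gives about 7.96%. FRS3 had 13.1, 12.8 and 11.9 CPM across CON 1 to 3 and 13.7, 11.4 and 15 CPM across GCA 1 to 3. Its GCA libraries span the whole CON range (0.08 ± 0.16, edgeR adjusted p = 0.703).

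Per length, the order of TMM-scaled FPKM in CON was FGFRL1 (54.7 ± 2.57, SD), FGFR4 (53.8 ± 1.51), FGF19 (39.1 ± 8.92), FGFR3 (16.2 ± 1.63), FGFR1 (12.1 ± 0.329), FGFBP1 (3.52 ± 0.521), FRS3 (3.26 ± 0.164), FGFR2 (2.43 ± 0.468) and FRS2 (1.14 ± 0.380). The neighbours FGFRL1 and FGFR4, and FGFBP1 and FRS3, overlap between libraries, while the other neighbours do not. In GCA, FGFBP1 moved up to 18.5 ± 3.38 FPKM. There its range overlaps both that of FGFR3 (23.6 ± 3.08 FPKM) and that of FGFR1 (14.3 ± 1.88 FPKM).

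FGFBP1, the carrier that mobilises FGFs from heparan sulphate, had the largest difference of the axis. Its levels were 4.90, 5.37 and 3.99 CPM across CON 1 to 3 and 19.9, 28.7 and 26.4 CPM across GCA 1 to 3, from counts of 88, 103 and 77 against 401, 564 and 504. The lowest GCA library is far above the highest CON library. The means were 4.75 ± 0.704 and 25 ± 4.57 CPM (SD), a log2 fold change of 2.39 ± 0.19 (SE; edgeR adjusted p = 3.12e-06). Only 69 of the 12604 tested genes, FGFBP1 included, had a fold change at least as high. With the composition correction the value was 2.40 ± 0.17 (edgeR adjusted p = 4.04e-05). FGFBP1 transcripts are 48.3% G and C, and of the 1566 tested genes within 2 points of that, 7.60% rose, with a median of -0.16.

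**Figure D4:**
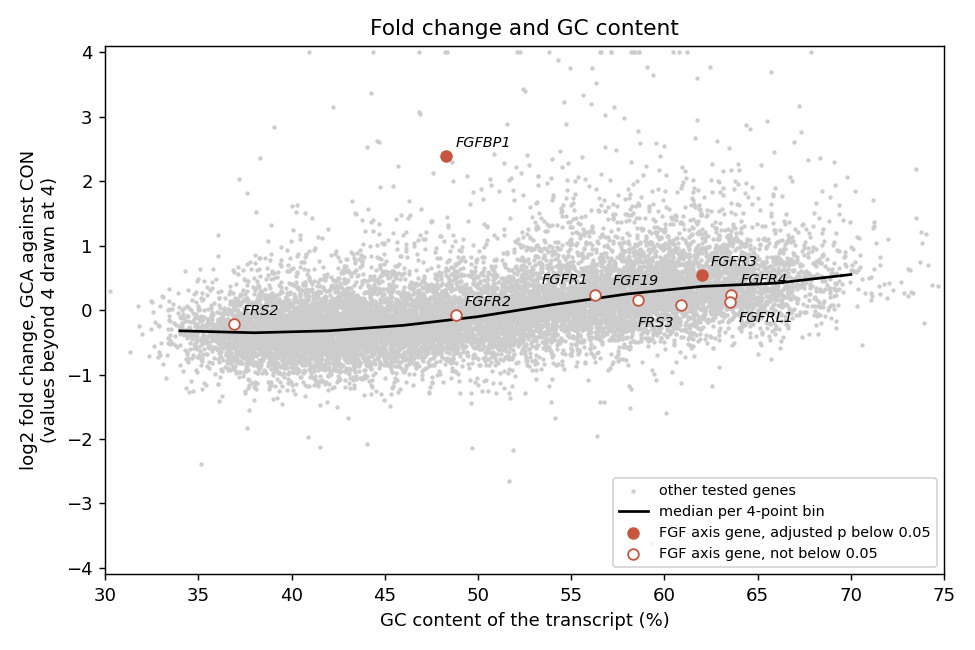
Log2 fold change of GCA against CON and GC content (%) of the transcript for tested genes (grey), with the median per 4-point bin as a line and the 9 axis genes in red. FGFBP1 at 2.39 lies far above the line, FGFR3 at 0.55 a little above it, and FGFR4, FGF19, FRS3 and FGFRL1 below it.

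FGFBP2, a paralogue of FGFBP1 that cytotoxic lymphocytes are known to secrete, rose as well. It had counts of 1, 2 and 2 without GCA and 19, 17 and 24 with it (edgeR adjusted p = 0.000444; 0.00177 with the composition correction). All 3 CON counts lie under a floor of 3 counts per library (0.155 to 0.167 CPM), so no fold is given. The third carrier gene, FGFBP3, had 2.58 CPM in CON and 2.30 CPM in GCA (log2 fold change -0.17, edgeR adjusted p = 0.652), and was chosen after its value was seen.

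The other FGF ligand genes were low. Rows were present for 17 of 21 further ligand genes. The filter left 8, of which 1 rose, 1 fell and 6 did not pass the test, where 18.3% of all tested genes rose and 18.1% fell. FGF22, a ligand of the FGF7 subfamily, had counts of 5, 4 and 7 without GCA and 37, 16 and 18 with it (log2 fold change 2.06 ± 0.47, edgeR adjusted p = 0.00518; 0.0561 with the composition correction). FGF21, like FGF19 a hormone that needs beta-klotho, had counts of 10, 18 and 14 without GCA and 5, 0 and 6 with it, a fall of 1.95 ± 0.63 on the log2 scale (edgeR adjusted p = 0.0282). That call was lost without CON 2 (edgeR adjusted p = 0.0975), GCA 1 (0.064) or GCA 2 (0.0756). The most abundant of these ligands were FGF2, at 6.45 and 5.52 CPM, and FGF11, at 6.01 and 6.02 CPM; neither passed, and the sign of their differences depended on the setting. Per length FGF19 stood at 39.1 FPKM in CON, where the highest of the other ligands, FGF11, stood at 2.27 FPKM.

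Co-receptors and surface partners rose in 5 of 10 tested genes and fell in none (median log2 fold change 0.45): FGFBP2, NCAM1, SDC3, SDC4 and L1CAM. The shares over all tested genes were 18.3% and 18.1%. With the correction 4 rose and 1 fell (median 0.23), against 12.1% and 17.1% of all tested genes. SDC3 and SDC4 encode syndecans, heparan sulphate proteoglycans that present FGFs to their receptors. SDC3 rose from 154 ± 10.3 to 232 ± 9.70 CPM (SD; log2 0.59 ± 0.12, edgeR adjusted p = 0.00205) and SDC4 from 124 ± 16.1 to 189 ± 8.70 CPM (0.61 ± 0.13, edgeR adjusted p = 0.00281). With the correction they stood at 0.30 and 0.68 and both still passed. The adhesion molecule gene NCAM1 rose at a low level, with counts of 8, 6 and 9 against 33, 38 and 26 (edgeR adjusted p = 0.00130). L1CAM, chosen here after its value was seen, passed narrowly (0.41 ± 0.15, edgeR adjusted p = 0.0447) and kept its call in 6 of 17 alternatives. It stood at 0.07 with the correction (edgeR adjusted p = 0.733) and was lost with upper quartile scaling (0.0719), with library sizes alone (0.135), with limma (0.149 and 0.137) and without CON 1 (edgeR adjusted p = 0.0562), CON 2 (0.0609), GCA 1 (0.111), GCA 2 (0.0732) or GCA 3 (0.130). SDC1, also chosen after its value was seen, stood at -0.31 ± 0.13 (edgeR adjusted p = 0.0880). It passed as a fall in 9 of 17 alternatives. Among them were the replicate block (-0.32, edgeR adjusted p = 0.0353), the composition correction (-0.68, edgeR adjusted p = 0.00270) and the fit without GCA 1 (-0.41, edgeR adjusted p = 0.0471). The glypican gene GPC1, at 303 and 366 CPM, did not pass (0.27 ± 0.13, edgeR adjusted p = 0.115) but did without CON 1 (0.32, edgeR adjusted p = 0.0215) and, in the other direction, with the correction and the replicate block together (-0.23, edgeR adjusted p = 0.0473).

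Enzymes that build and edit heparan sulphate moved in both directions, with 5 of 16 tested genes up and 2 down (median 0.15). These 7 calls are near the share of all tested genes that passed, 36.4%. B3GALT6, which adds a sugar of the linker to the core protein, rose from 35.1 ± 2.91 to 63.5 ± 2.97 CPM (log2 0.85 ± 0.12, edgeR adjusted p = 0.000213) and stood at 0.37 with the correction (edgeR adjusted p = 0.0136). The paralogous 6-O-sulphotransferase genes differed in sign: HS6ST1 rose by 0.57 ± 0.11 (edgeR adjusted p = 0.00228) and HS6ST2 fell by 0.79 ± 0.12 (edgeR adjusted p = 0.000437). The HS6ST1 call was lost with the correction (0.19, edgeR adjusted p = 0.129), and HS6ST2 kept its call (-0.54). The 3-O-sulphotransferase gene HS3ST1 fell by 0.43 ± 0.14 (edgeR adjusted p = 0.0245). That call was lost with the correction (edgeR adjusted p = 0.111) and when CON 2 (0.0919), CON 3 (0.133), GCA 1 (0.067), GCA 2 (0.109) or GCA 3 (0.0596) was left out. EXTL3, at 130 and 154 CPM, did not pass (0.24, edgeR adjusted p = 0.102).

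Downstream of the receptors, 2 of 23 tested signalling genes rose and 8 fell (median -0.26), against 18.3% and 18.1% of all tested genes. The phosphatase gene PTPN11, whose product docks on phosphorylated FRS2, fell from 118 ± 11.4 to 74.8 ± 8.14 CPM (log2 -0.66 ± 0.13, edgeR adjusted p = 0.00186; -0.37 with the correction, edgeR adjusted p = 0.0193). NRAS fell by 0.59 ± 0.11 (edgeR adjusted p = 0.00178; 0.0751 with the correction). MAPK3, the gene of ERK1, rose by 0.66 ± 0.12 (edgeR adjusted p = 0.00135) and MAP2K2, the gene of MEK2, by 0.52 ± 0.12 (edgeR adjusted p = 0.00542). With the correction these last values were 0.20 and 0.01 and neither passed, and in this list none rose and 6 fell with it, where 12.1% of all tested genes rose and 17.1% fell. GRB2, the adapter that binds FRS2, was at 285 ± 1.13 and 281 ± 14.3 CPM (log2 -0.02, edgeR adjusted p = 0.900).

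Of 18 feedback regulators and target genes of FGF and ERK signalling, 2 rose and 3 fell (median -0.10), where 36.4% of all tested genes passed in either direction. Among the genes that damp the pathway, DUSP6 stood at 147 and 139 CPM (log2 -0.08 ± 0.23, edgeR adjusted p = 0.816) and did not pass, nor did SPRY4 at 151 CPM in both groups (0.00 ± 0.25, edgeR adjusted p = 0.993), both chosen after their values were seen. DUSP6 passed as lower in GCA without CON 1 (-0.36, edgeR adjusted p = 0.0249) and without replicate 1 of both groups (-0.21, edgeR adjusted p = 0.0294), and its sign, like that of SPRY4, depended on the setting. SPRED3, an inhibitor of RAS signalling, rose from 4.05 ± 1.13 to 9.74 ± 2.86 CPM (1.26 ± 0.26, edgeR adjusted p = 0.00283), and the ETS factor gene ETV1 rose by 0.73 ± 0.17 (edgeR adjusted p = 0.00502). Related genes of the list, named after their values were seen, did not pass. SPRED1 stood at -0.32 and SPRED2 at -0.21 (edgeR adjusted p = 0.147 and 0.204). ETV4 stood at 0.13 and ETV5 at -0.14 (edgeR adjusted p = 0.373 and 0.42). With the correction ETV4 passed as a fall (-0.28, edgeR adjusted p = 0.0303). FOSL1 and the immediate early gene EGR1 fell by 0.61 ± 0.12 and 0.67 ± 0.17 (edgeR adjusted p = 0.00199 and 0.00851). EGR1 was named after its value was seen. MYC fell from 563 to 398 CPM (-0.50 ± 0.12, edgeR adjusted p = 0.00824). Without GCA 2 the MYC and EGR1 calls were lost (edgeR adjusted p = 0.0508 and 0.0563). PHLDA1 and CCND1, the most abundant genes of the list, did not pass; PHLDA1 did without CON 1 (-0.25, edgeR adjusted p = 0.0430) and without replicate 1 of both groups (-0.19, edgeR adjusted p = 0.0313). CCND1 did as well without replicate 1 of both groups (-0.19, edgeR adjusted p = 0.0237), with library sizes alone (-0.30, edgeR adjusted p = 0.0365) and with limma (-0.30 with either pseudocount, adjusted p = 0.0247 and 0.0272).

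**Figure D5:**
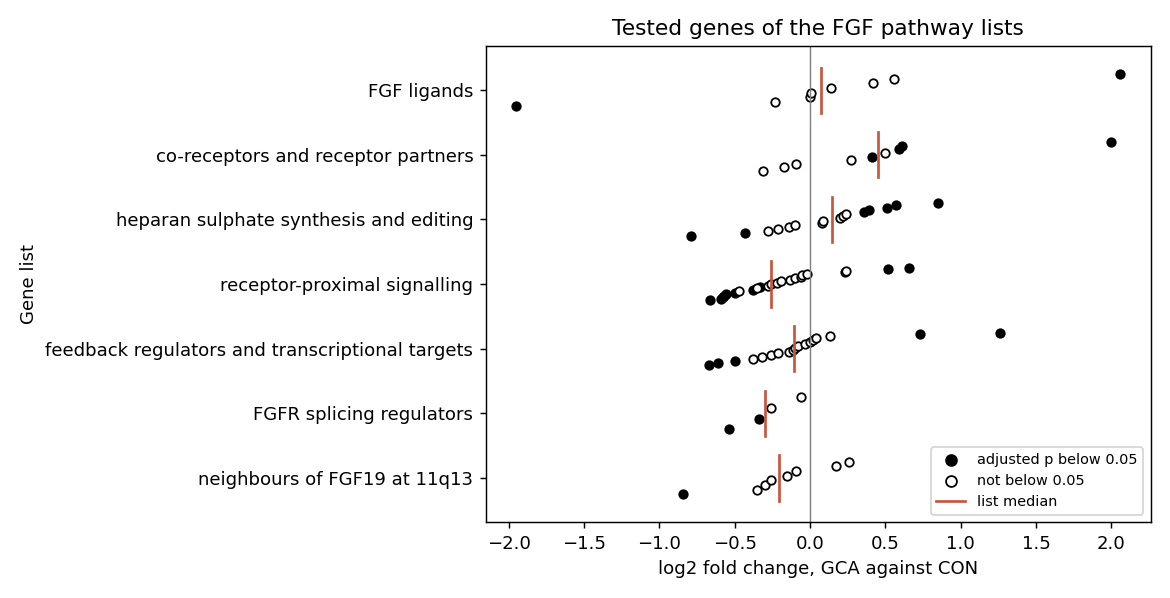
Log2 fold change of GCA against CON for the tested genes of 7 FGF pathway lists, filled where the adjusted p is below 0.05, with the list median in red; FGFBP2 is not drawn because its CON counts lie under the floor. Medians run from -0.30 for the splicing regulators to 0.45 for co-receptors and receptor partners.

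Of 4 tested splicing factors that choose between the forms of FGFR2, none rose and 2 fell (median -0.30), against 18.3% and 18.1% of all tested genes. With the correction 1 fell, where 17.1% of all tested genes did. ESRP1, which favours the epithelial form, fell from 113 ± 23.9 to 77.8 ± 2.38 CPM (log2 -0.54 ± 0.15, edgeR adjusted p = 0.0128). That call was lost with the correction (-0.27, edgeR adjusted p = 0.0992) and without CON 2 (0.0524), CON 3 (0.0686), GCA 1 (0.0526) or GCA 3 (0.0647). RBFOX2 fell by 0.34 ± 0.12 (edgeR adjusted p = 0.0434) and stood at -0.10 with the correction (edgeR adjusted p = 0.381), and leaving out CON 2 (0.177), CON 3 (0.187), GCA 1 (0.0945), GCA 2 (0.101) or GCA 3 (0.150) ended its call. PTBP1 stood at 1130 ± 171 and 948 ± 148 CPM (log2 -0.26, edgeR adjusted p = 0.210; -0.60 with the correction, edgeR adjusted p = 0.0111).

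FGF19 lies on chromosome 11 (69698238 to 69704022), in a cluster with CCND1, FGF4 and FGF3 that is known to be amplified in several cancers. Of 8 tested neighbours 1 fell and none rose (median -0.21), against 18.1% and 18.3% of all tested genes. With the correction 3 fell (median -0.25), where 17.1% of all tested genes did. The gene that fell without it was ANO1, which encodes a chloride channel and fell from 85.5 ± 6.41 to 47.8 ± 5.38 CPM (log2 -0.84 ± 0.12, edgeR adjusted p = 0.000343). CCND1, the cyclin D1 gene, was the most abundant neighbour at 616 ± 63.7 and 514 ± 24.6 CPM (-0.26 ± 0.13, edgeR adjusted p = 0.127), and MYEOV stood at 146 and 132 CPM (-0.15, edgeR adjusted p = 0.320; -0.45 with the correction, edgeR adjusted p = 0.00708). FGF3, named here after its value was seen, was near 0, with means of 0.0173 and 0.0524 CPM. In liver FGF19 represses CYP7A1, the rate-limiting enzyme of bile acid synthesis. Of 5 genes in the list of such targets 3 had a row and none passed the filter, with CYP7A1, also named after its value was seen, at means of 0.0345 CPM in CON and 0 CPM in GCA.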

How the data were processed

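RNA-seq libraries of 3 GCA and 3 CON samples were compared. The authors deposited raw counts per gene symbol and, for the same genes, FPKM values; in 16229 of 16229 genes the deposited FPKM is the count over the library total and a single length, to a relative 1e-09. The build hg38 and the tools HTSeq 0.11.2, HISAT2 2.2.1.0 and fastp 0.20.1 stand, without roles, in the list per the submitters' processing notes. The annotation, strand setting and filters were not given in the sources used here.

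Counts were tested with edgeR 4.0.16 in R 4.3.3 (TMM, filterByExpr with minimum count 10 and minimum total 15, glmQLFit, glmQLFTest, Benjamini-Hochberg at 0.05). CPM and FPKM use TMM-scaled library sizes, and the FPKM lengths are those the deposited table implies. An SE is the log2 fold change divided by the square root of F. Counting errors and floors cover counting error only. The script was tested on simulated data.

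The composition correction, for GC content and length, fitted, per library, splines with 5 degrees of freedom to log2 CPM deviations (prior count 2) and entered them as offsets. The deviations were taken from each gene's mean over all libraries, without regard to group. A group difference that follows GC content or length is therefore removed too, whatever its source, and that source was not tested. GC content came from GENCODE 29 transcripts for 99.2% of genes, and 41 tested genes without one were set to the median. Deviations of same-numbered libraries from their group means correlated at 0.206, 0.137 and 0.104 across genes, each over a limit of 0.1. The replicate number therefore entered as a block in alternative fits, while the main fit used the group alone. Other alternatives were normalizations, filters, DESeq2 1.42.0, limma 3.58.1 on log2(FPKM + 1) and log2(FPKM + 0.1), and leaving out libraries.

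The 10 genes and the lists were chosen with earlier results of these data known. From each list the text names up to 4 called genes with the lowest p and the 2 with the highest mean CPM. Coordinates and promoters are RefSeq's, GRCh38.p14.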

Additional observations from a re-analysis of the deposited data

How the results depend on the processing

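Of 17 alternatives, FGFBP1 kept its call in all (log2 2.06 to 2.58). FGFR3 kept its call in 14; with the replicate block and the composition correction together it stood at 0.14 (edgeR adjusted p = 0.301). The replicate block alone gave 5163 genes past the threshold and changed the call of no axis gene. All genes past the threshold, 4584, became 7419 without replicate 1 of both groups and ranged from 2621 to 6707 when 1 library was left out. Over the same settings the axis genes past it, 2, became 4 (FGFBP1, FGFR1, FGFR3 and FGFR4, where 29.3% of all tested genes rose) and ranged from 1 to 3. In the pathway lists, neighbours of FGF19 included, 32 genes were past it, where 36.4% of all tested genes were. That count became 53 and ranged from 19 to 47 over these settings. The lists had 8, 10, 16, 23, 18, 4 and 8 tested genes, in the order of the text, with CCND1 in 2 of them. Without the correction 2307 genes were higher and 2277 lower. With it 41.3% of calls were higher, and 39.7% with the block added. The marker genes, the genes closest to FGF19, ESRP2, SPRED1, SPRED2, ETV4 and ETV5 were not followed over all settings. Among the other genes with values in the text, those that did not pass without the correction and changed sign with it were FGF19 (-0.24, and -0.21 with the block), FGFR2 (0.06 in both), FGFR4 (-0.22 in both), FGFRL1 (-0.32 in both), FRS2 (0.13 in both), FRS3 (-0.30 and -0.31), FGF2 (0.10 in both), GPC1 (-0.23 in both), PHLDA1 (0.15 and 0.16), DUSP6 (0.11 and 0.15) and PROM1 (0.18 in both). SPRY4, at 0.00, took a negative sign with upper quartile scaling (-0.02), library size only (-0.06), no filter (-0.01), limma (-0.05 with either pseudocount), the block (0.00), the correction (0.00) and both (-0.04). FGF11 turned to 0.02 with DESeq2's size factors, with DESeq2 and with the block. When 1 library was left out, log2 values ran from 0.00 to 0.34 for FGF19, -0.21 to 0.08 for FGFR2, -0.47 to 0.01 for FRS2, -0.01 to 0.19 for FRS3, -0.24 to 0.16 for FGF11, -0.04 to 0.01 for GRB2, -0.25 to 0.02 for PHLDA1, -0.36 to 0.14 for DUSP6, -0.22 to 0.27 for SPRY4 and -0.14 to 0.01 for PROM1. The causes were not tested. FGF21, FGF22, FGFBP2 and NCAM1 had under 40 counts in every library: in CON their counting errors (26.7%, 43.3%, 77.5% and 36.1% of the mean) exceeded the spread between libraries, while with GCA the spread of FGF21 (88.4%) and FGF22 (46.5%) exceeded the counting error (52.2% and 20.6%).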

Other observations

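FGFBP1 and FGFBP2 were set beside the other genes with a row within 500000 bases of FGFBP1 on chromosome 4, a window chosen after their values were seen. Of these 7 other genes, 6 were tested and none passed (log2 -0.43 to -0.03), where 36.4% of all tested genes did. With the composition correction none passed either. So few genes cannot show whether the rise was confined to FGFBP1 and FGFBP2. The nearest beyond FGFBP2 is PROM1, the gene of the stem cell marker CD133, with counts of 166, 206 and 171 without GCA and 183, 189 and 159 with it (log2 fold change -0.09 ± 0.16, edgeR adjusted p = 0.683). On the other side CD38, an NAD-consuming ectoenzyme gene, had 0 to 3 counts per library. The lowest value was that of TAPT1 (-0.43 ± 0.20, edgeR adjusted p = 0.11), which passed without CON 1 (-0.53, edgeR adjusted p = 0.0336).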
